A study of Homo sapiens with 6 samples.

Results

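The retinoblastoma pocket protein genes and the E2F transcription factor genes were followed through inhibition of the arginine methyltransferase PRMT5. The 10 genes were found in the deposited table by matching its Ensembl identifiers to symbols. They are 3 pocket protein genes (RB1, RBL1 and RBL2) and 7 E2F genes (E2F2 to E2F8), out of 60605 genes in all. The samples were HuCCT-1 cells, an established human line from a bile duct cancer (cholangiocarcinoma). One group of 3 libraries came from cells given 6 nM JNJ-64619178, a PRMT5 inhibitor, for 4 days, and the other group of 3 from cells given the same volume of the solvent DMSO. All libraries come from 1 cell line. The labels do not state that replicates grew as separate cultures, so each p-value reflects only how these libraries vary, and that variation may be technical. Gene counts were 24315685, 28224911 and 23931991 in the JNJ-64619178 libraries, against 30194024, 28133746 and 30691914 in the DMSO libraries.

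Pocket proteins bind E2F factors and silence the genes those factors control. Cyclin-dependent kinases phosphorylate the pocket proteins late in G1, which frees E2F and lets the genes of DNA synthesis be transcribed. RB1 binds mainly the activating E2F factors, while the proteins of RBL1 and RBL2 bind E2F4 and E2F5 and join the MuvB proteins in the repressive DREAM complex of resting cells. E2F6 represses without a pocket protein, in a Polycomb complex, and E2F7 and E2F8 are atypical repressors that bind DNA without a DP partner. In leukemia and lymphoma lines PRMT5 has been reported to repress the pocket protein genes, and the present values show their level in a bile duct cancer line.

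RBL1 and E2F7 were lower with the PRMT5 inhibitor, and no member was higher by the test. RBL1 fell by 33.7% and E2F7 fell by 25.4%. RB1, RBL2, E2F3, E2F4, E2F5, E2F6 and E2F8 did not pass the threshold, and E2F2 had too few reads to be tested. At an unadjusted p under 0.05 there were 3 members, a level for which the share over all genes was not counted. Of the 9 members tested, 0 were called higher and 2 lower by edgeR's quasi-likelihood test at an adjusted p under 0.05. Over all 17371 genes tested, 37.1% were called, 20.0% higher and 17.1% lower, so the members' share is not above the background. The median log2 fold change was -0.01 over the 9 tested members and 0.001 over all genes tested. With upper-quartile in place of TMM scaling, 40.6% of the calls over all genes were higher, against 53.9% with TMM, and RBL1 and E2F7 were called lower under both.

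RBL1 encodes the pocket protein p107, itself made mainly in cycling cells. Levels here are TMM-scaled CPM, the reads of a gene relative to its library's total. RBL1 had 5.37, 4.97 and 4.83 CPM in the JNJ-64619178 libraries, against 7.61, 7.93 and 7.35 CPM in the DMSO libraries. All inhibitor libraries lay below all DMSO libraries, as they did for 22.2% of all genes tested. Groups that did not overlap, in either direction, were found for 2 of the 9 tested members and for 47.0% of all genes tested. The means were 5.06 ± 0.28 CPM with JNJ-64619178 and 7.63 ± 0.29 CPM with DMSO (SD, n = 3 each). These levels rest on 114 to 142 reads per library with JNJ-64619178 and 219 to 229 with DMSO. The log2 fold change was -0.59 (SE 0.12, 95% interval -0.84 to -0.35, edgeR adjusted p = 0.000332). Of all genes tested, 14.0% changed by more than RBL1 in size. RBL1 (ENSG00000080839) lies on the minus strand of chromosome 20, from 36996349 to 37095995, in GENCODE release 29 on GRCh38. Its annotated antisense neighbour ENSG00000269846 had 0 reads in every library.

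E2F7 encodes an atypical E2F that represses genes of the S phase and is itself switched on by E2F activity. It had 71.2, 70.7 and 75.3 CPM in the JNJ-64619178 libraries, against 103, 95.3 and 92.6 CPM in the DMSO libraries. The groups did not overlap, and the inhibitor libraries were the lower ones. The means were 72.4 ± 2.49 CPM with JNJ-64619178 and 97.1 ± 5.60 CPM with DMSO (SD, n = 3 each), so the difference exceeded the spread in both groups. The log2 fold change was -0.42 (SE 0.05, 95% interval -0.53 to -0.32, edgeR adjusted p = 4.4e-07). Of all genes tested, 24.4% changed by more than E2F7 in size. E2F7 (ENSG00000165891) lies on the minus strand of chromosome 12, from 77021247 to 77065580.

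**Figure D1:**
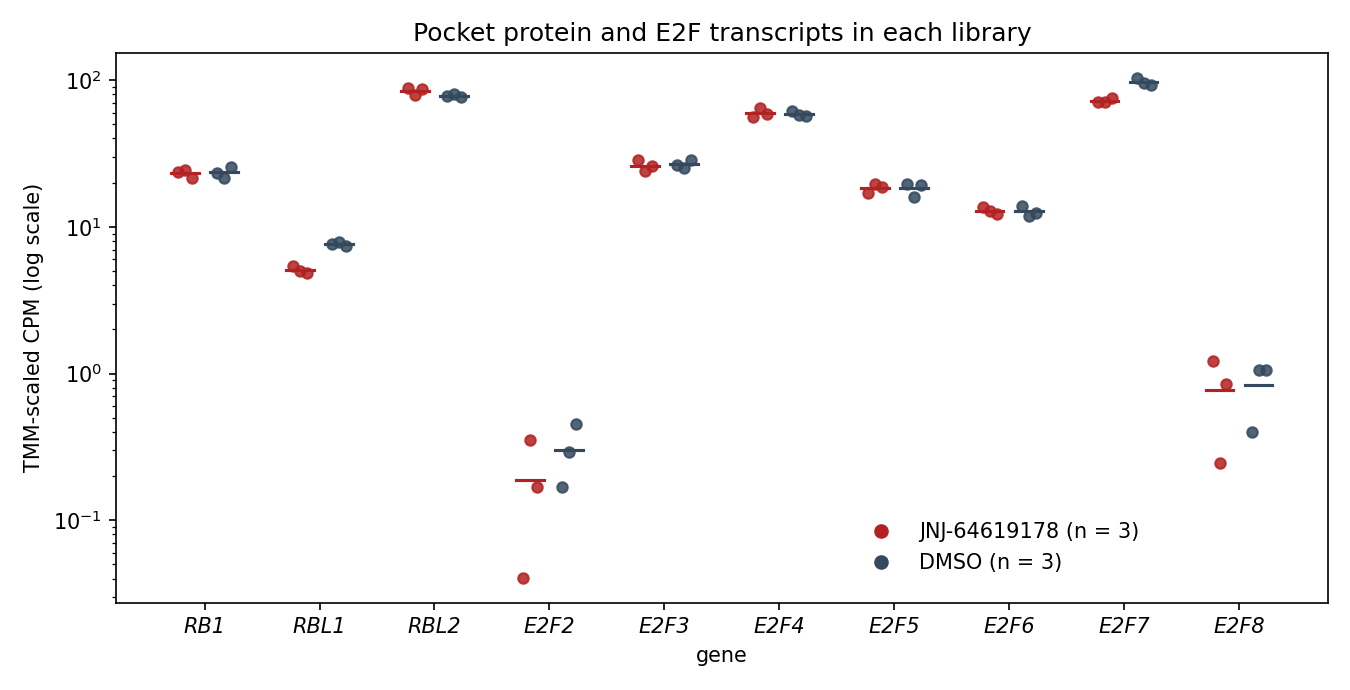
TMM-scaled CPM on a log axis for each of the 10 genes, with JNJ-64619178 libraries (red, left) and DMSO libraries (dark blue, right) as points and the mean of 3 as a line. RBL1 and E2F7 are the genes whose groups do not overlap, at means of 5.06 against 7.63 CPM and 72.4 against 97.1 CPM, and E2F2 and E2F8 have the lowest levels.

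E2F factors act on the promoters of several of these genes, so their promoter windows were searched for the E2F motif. RefSeq windows were taken for 8 of the 10 genes. E2F8 had no window and E2F5 was left out of the listing, so whether their promoters hold the motif is not reported here. The RB1 window starts inside the gene and was not used. The windows are RefSeq's, on GRCh38.p14, and run from 250 bases before to 50 after the annotated start. The motif was spelled out in 4 versions, TTTCCCGC, TTTGGCGC, TTTCGCGC and TTTGCCGC, on both strands. Of 35116 windows of 300 bases over all genes, 3.31% held a version and 0.145% (51 windows) held at least 2. RBL1 held 2 motifs, TTTCGCGC and TTTGGCGC, which start 26 and 16 bases before the transcription start and lie 2 bases apart. E2F3 and E2F2 each held 1 motif. The first E2F3 window carries GCGGGAAA, which reads TTTCCCGC on the other strand, 53 bases before the start, and E2F2 carries TTTGGCGC 42 bases before it. The E2F7 window held no version, and neither did the windows listed for RBL2, E2F4 and E2F6 or the second window of E2F3. The CHR motif, at which DREAM binds late cell cycle genes (TTTGAA or TTCGAA on either strand), stood in the first windows of E2F3 and RBL2 and in 16.4% of all windows. So of the members that fell, RBL1 holds the searched letters and E2F7 does not, while E2F3 holds them and was not called, and E2F2 holds them and was not tested. A match is a description of the letters and not a measured binding site. The windows of both genes that fell and of both others with an E2F motif are shown 5′ to 3′ along the gene's strand, with E2F motifs in capitals, at chr20:37095948-37096247 (RBL1, minus strand), chr12:77065520-77065819 (E2F7, minus strand), chr6:20401629-20401928 (E2F3, plus strand) and chr1:23531184-23531483 (E2F2, minus strand).
RBL1: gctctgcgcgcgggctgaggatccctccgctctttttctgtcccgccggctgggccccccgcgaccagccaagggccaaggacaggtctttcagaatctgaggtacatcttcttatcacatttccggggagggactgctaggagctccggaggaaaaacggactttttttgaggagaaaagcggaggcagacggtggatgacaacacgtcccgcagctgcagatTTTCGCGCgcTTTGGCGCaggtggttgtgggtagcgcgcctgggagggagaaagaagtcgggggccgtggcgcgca
E2F7: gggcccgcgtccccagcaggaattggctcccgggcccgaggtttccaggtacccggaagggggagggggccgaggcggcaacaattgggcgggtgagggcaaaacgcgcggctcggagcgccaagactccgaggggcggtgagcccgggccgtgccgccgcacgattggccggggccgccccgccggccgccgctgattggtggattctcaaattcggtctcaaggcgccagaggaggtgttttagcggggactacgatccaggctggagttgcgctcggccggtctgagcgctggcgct
E2F3: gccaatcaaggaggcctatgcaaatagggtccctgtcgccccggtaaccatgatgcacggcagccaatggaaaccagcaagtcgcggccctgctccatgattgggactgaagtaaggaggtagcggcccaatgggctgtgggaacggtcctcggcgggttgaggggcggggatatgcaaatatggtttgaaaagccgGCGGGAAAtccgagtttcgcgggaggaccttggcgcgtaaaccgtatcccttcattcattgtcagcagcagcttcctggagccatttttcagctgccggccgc
E2F2: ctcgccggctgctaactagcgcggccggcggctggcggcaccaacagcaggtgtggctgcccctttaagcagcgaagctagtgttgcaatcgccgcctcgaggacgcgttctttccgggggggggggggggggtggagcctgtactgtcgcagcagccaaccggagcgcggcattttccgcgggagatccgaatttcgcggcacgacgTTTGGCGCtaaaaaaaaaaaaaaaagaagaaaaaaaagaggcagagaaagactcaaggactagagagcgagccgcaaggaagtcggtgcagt

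RBL2 encodes p130, the pocket protein of resting cells and the main partner of E2F4 in DREAM. It had 87.8, 78.7 and 87.3 CPM in the JNJ-64619178 libraries, against 77.8, 80.7 and 76.8 CPM in the DMSO libraries. JNJ-64619178 replicates 1 and 3 lay above all DMSO libraries and replicate 2 among them. The log2 fold change was 0.11 (SE 0.05, 95% interval 0.002 to 0.21), and the gene did not pass after adjustment (edgeR unadjusted p = 0.0453, adjusted p = 0.102). Without JNJ-64619178 replicate 2 it passed as higher (log2 fold change 0.16, edgeR adjusted p = 0.0122), and over all alternatives its adjusted p ran from 0.0122 to 0.473. The 95% interval over all libraries ran up to a 1.16-fold rise.

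RB1 encodes the retinoblastoma protein itself. It had 23.8, 24.5 and 21.7 CPM in the JNJ-64619178 libraries, against 23.3, 21.6 and 25.6 CPM in the DMSO libraries. The groups overlapped, and the log2 fold change was -0.01 (95% interval -0.16 to 0.14, edgeR adjusted p = 0.934). As a fold change, the 95% interval ran from 0.893 to 1.10. LPAR6, a receptor gene inside an RB1 intron on the opposite strand, had 20 to 25 reads per library with JNJ-64619178 and 16 to 20 with DMSO. RCBTB2, also on the opposite strand within the span of RB1, had 30 to 50 reads with JNJ-64619178 and 40 to 47 with DMSO. RB1 itself was counted with 511 to 700 reads with JNJ-64619178 and 595 to 797 with DMSO. AKTIP, which overlaps the end of RBL2 on the opposite strand, had 324 to 392 reads with JNJ-64619178 and 274 to 357 with DMSO.

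E2F3 and E2F2 are the transcriptional activators of the set. E2F3 had 28.3, 24.2 and 25.8 CPM in the JNJ-64619178 libraries, against 26.6, 25.2 and 28.5 CPM in the DMSO libraries. The groups overlapped, with a log2 fold change of -0.04 (95% interval -0.18 to 0.11, edgeR adjusted p = 0.705). The gene count cannot tell its long and short isoforms apart. E2F2 was nearly silent, with 1, 10 and 4 reads in the JNJ-64619178 libraries and 5, 8 and 14 reads in the DMSO libraries. It fell below the count filter and was not tested with the other genes. With no filter on low counts its log2 fold change was -0.65 (SE 0.61, edgeR adjusted p = 0.586), which did not pass.

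E2F4 and E2F5 are the repressive partners of the RBL1 and RBL2 proteins. E2F4 had 56.1, 64.4 and 58.7 CPM in the JNJ-64619178 libraries, against 61.7, 58.0 and 56.7 CPM in the DMSO libraries. The ranges overlapped almost fully (log2 fold change 0.02, 95% interval -0.09 to 0.14, edgeR adjusted p = 0.771). E2F5 ranged from 17.0 to 19.4 CPM with JNJ-64619178 and from 15.9 to 19.7 CPM with DMSO (log2 fold change 0.003, 95% interval -0.17 to 0.18, adjusted p = 0.986 by edgeR). RBIS, a ribosome biogenesis gene on the opposite strand, overlaps the end of E2F5 and had 1013 to 1292 reads per library with JNJ-64619178 and 959 to 1170 with DMSO, more than the 418 to 555 and 439 to 602 reads of E2F5. The library kit keeps the strand, but the labels do not say whether counting used it, so the E2F5 level is uncertain.

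E2F6, the Polycomb-bound repressor, ranged from 12.2 to 13.7 CPM with JNJ-64619178 and from 11.8 to 13.9 CPM with DMSO. Its log2 fold change was 0.02 (95% interval -0.17 to 0.20, edgeR adjusted p = 0.913). E2F8, the close relative of E2F7, was scarce and variable. It had 1.22, 0.245 and 0.848 CPM in the JNJ-64619178 libraries, against 0.402, 1.05 and 1.06 CPM in the DMSO libraries, from 7 to 33 reads. Its 95% interval ran from -1.03 to 0.73 on the log2 scale around a value of -0.15 (edgeR adjusted p = 0.819), so a fall as large as that of E2F7 lies inside it. Whether E2F8 changed differently from E2F7 was not tested.

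**Figure D2:**
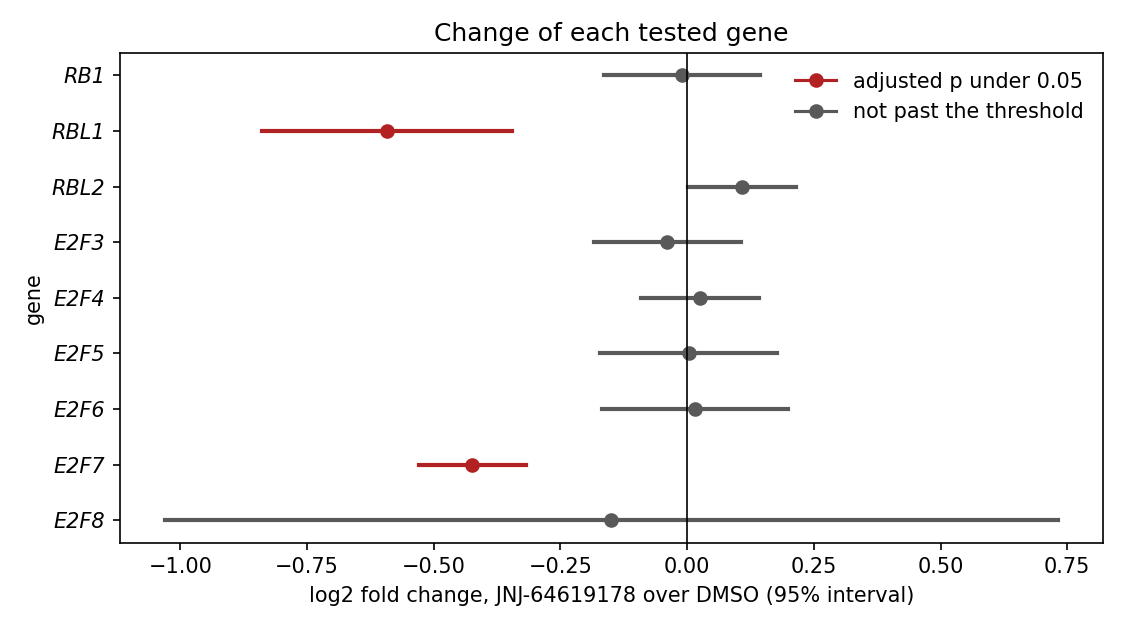
Log2 fold change of JNJ-64619178 over DMSO (points) with 95% intervals (bars) for the 9 tested genes, n = 3 libraries in each group. RBL1 at -0.59 and E2F7 at -0.42 pass the threshold (red), the interval of RBL2 starts at 0.002, and E2F8 has the widest interval, from -1.03 to 0.73.

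To compare genes with each other, CPM was divided by exonic length in kilobases, the union of all annotated exons of GENCODE release 29. This overstates the length of any single transcript. Among pocket protein genes RBL2 led with 11.6 ± 0.70 CPM per kb with JNJ-64619178 and 10.7 ± 0.27 with DMSO (SD, n = 3 each). RB1 followed with 3.61 ± 0.23 and 3.64 ± 0.31 CPM per kb, and RBL1 was the least abundant with 0.849 ± 0.047 with JNJ-64619178 and 1.28 ± 0.049 with DMSO. The libraries of these 3 genes did not overlap with each other, so their order held in each library. RBL1 made up 5.04% to 5.44% of the summed pocket protein level in the JNJ-64619178 libraries and 7.87% to 8.49% in the DMSO libraries. RBL2 made up 69.9% to 74.1% with JNJ-64619178 and 66.9% to 70.2% with DMSO, and these ranges overlapped. The pocket protein sum itself was 15.4 to 16.6 CPM per kb with JNJ-64619178 and 15.5 to 15.7 with DMSO.

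Among the E2F genes the order by length-scaled level was E2F4, E2F7, E2F3, E2F6, E2F5, E2F8 and E2F2. E2F4 had 15.7 to 18.0 CPM per kb with JNJ-64619178 and 15.8 to 17.2 with DMSO. E2F7 had 11.2 to 11.9 CPM per kb with JNJ-64619178 and 14.7 to 16.4 with DMSO. So the ranges of E2F4 and E2F7 were apart in the inhibitor libraries and overlapped in the DMSO libraries. Within each library E2F4 lay above E2F7. In DMSO replicates 1 to 3 E2F4 had 17.2, 16.2 and 15.8 CPM per kb, against 16.4, 15.1 and 14.7 for E2F7. E2F3 stood at 5.06 ± 0.41 CPM per kb with JNJ-64619178 and 5.18 ± 0.32 with DMSO. E2F6 (3.17 and 3.13 CPM per kb) and E2F5 (3.10 and 3.09) did not differ from each other beyond their spread, and E2F8 (0.186 and 0.202) and E2F2 (0.034 and 0.055) were far below, with JNJ-64619178 first in each pair. Shares were taken of the level summed over the 7 genes E2F2 to E2F8 only. E2F7 made up 27.8% to 30.1% of that sum with JNJ-64619178 and 34.4% to 35.9% with DMSO. E2F4 made up 40.2% to 44.5% with JNJ-64619178 and 37.1% to 38.5% with DMSO, although its own level overlapped between the groups. The sum over the 7 E2F genes was 39.0 to 40.4 CPM per kb with JNJ-64619178 and 42.1 to 45.6 with DMSO.

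**Figure D3:**
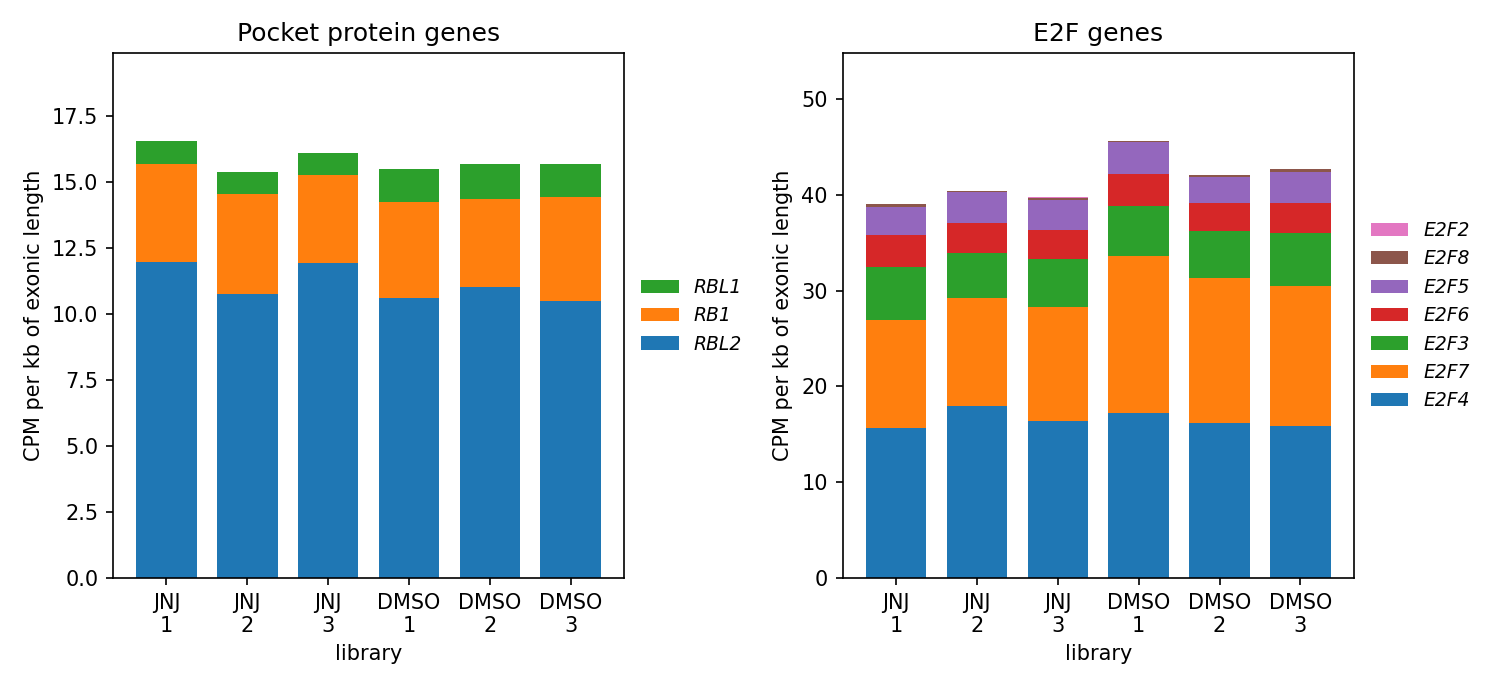
Stacked CPM per kb of exonic length in each library, JNJ-64619178 left and DMSO right, for the pocket protein genes (left panel) and the E2F genes (right panel). RBL2 fills most of the pocket protein bars and E2F4 and E2F7 most of the E2F bars, and the E2F7 band spans 11.2 to 11.9 in the inhibitor libraries against 14.7 to 16.4 in the DMSO libraries.

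Genes of the proteins that E2F and the pocket proteins work with changed at a few points. The counts for each list stand against 20.0% of all tested genes called higher and 17.1% called lower. Of 10 tested genes for DP partners, MuvB core proteins, MYB factors and FOXM1, 2 rose, 1 fell and 7 were not called, with a median log2 fold change of 0.09. LIN52, the MuvB subunit whose phosphorylation lets it hold a pocket protein, had 13.4, 15.2 and 15.3 CPM in the JNJ-64619178 libraries, against 9.42, 10.4 and 9.54 CPM in the DMSO libraries. The groups did not overlap, and LIN52 rose 1.49-fold (log2 fold change 0.58, SE 0.09, edgeR adjusted p = 1.62e-05). MYBL1, a MYB transcription factor related to the MuvB partner MYBL2, had 44.1, 43.2 and 46.4 CPM with JNJ-64619178, against 25.7, 24.5 and 24.6 CPM with DMSO. MYBL1 rose 1.79-fold, with an edgeR adjusted p of 5.05e-11. FOXM1, which joins MuvB to drive mitotic genes, was lower, with 4.31, 3.67 and 4.24 CPM with JNJ-64619178 against 5.46, 5.29 and 6.17 CPM with DMSO (log2 fold change -0.47, edgeR adjusted p = 0.00824). The DP partners did not pass. TFDP1 averaged 59.0 ± 0.86 CPM with JNJ-64619178 and 55.1 CPM with DMSO, and TFDP2 averaged 24.1 and 25.6 CPM, while TFDP3 was below the filter.

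Of the 12 partners of E2F6 in its Polycomb complex, 3 rose, 0 fell and 9 were not called (median 0.05). With upper-quartile scaling the list held 2 higher and 2 lower calls, so the count of 0 lower calls depends on the scaling. EHMT2, an H3K9 methyltransferase also called G9a, averaged 119 ± 2.94 CPM with JNJ-64619178 and 66.6 ± 1.71 CPM with DMSO (SD, n = 3 each), a 1.79-fold rise (edgeR adjusted p = 1.21e-12). CBX3, a heterochromatin reader, rose by 0.21 on the log2 scale (edgeR adjusted p = 0.000666), and the Polycomb protein L3MBTL2 also by 0.21 (0.0102). L3MBTL2 lost its call under upper-quartile scaling (adjusted p = 0.0626) and when DMSO replicate 2 was left out (0.0734). E2F6 in mouse cells silences germline genes. Of 5 such genes, STAG3 (0.69 and 0.49 CPM) and HSF2BP (1.68 and 1.28 CPM, JNJ-64619178 first) were tested and neither passed by edgeR, also at an unadjusted p under 0.05, while SMC1B, SLC25A31 and MAEL were below the filter.

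Of 19 corepressors and binding proteins of the pocket proteins, 5 rose, 2 fell and 12 were not called (median 0.03). KDM5A, a histone H3K4 demethylase first found by its binding to the retinoblastoma protein, averaged 131 ± 8.28 CPM with JNJ-64619178 and 89.8 ± 2.80 CPM with DMSO (log2 fold change 0.54, edgeR adjusted p = 6.2e-09). SIN3B, a scaffold of histone deacetylases, rose by 0.45, and the histone-binding protein gene RBBP7 by 0.39. ARID4A, another retinoblastoma-binding protein gene, rose by 0.51 and the DNA methyltransferase gene DNMT1 by 0.26. KMT5C, an H4K20 methyltransferase, averaged 16.4 ± 1.78 CPM with JNJ-64619178 and 22.5 ± 1.18 CPM with DMSO (log2 fold change -0.45, edgeR adjusted p = 8.1e-05). RBBP6, a ubiquitin ligase, was called lower at -0.15. That call was lost without JNJ-64619178 replicate 2 or 3 or DMSO replicate 1 or 2 (adjusted p 0.0728 to 0.182). It was also lost with the replicate number as a block (edgeR adjusted p = 0.0527).

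Upstream of the pocket proteins, 2 of 15 tested cyclins, kinases and inhibitors rose, 3 fell and 10 were not called (median 0.003). CCNA2, the S phase cyclin and an E2F target, averaged 4.86 ± 0.58 CPM with JNJ-64619178 and 7.03 ± 0.61 CPM with DMSO (log2 fold change -0.53, edgeR adjusted p = 0.00219). CDKN1A, the inhibitor p21, rose by 0.22 (edgeR adjusted p = 0.00202). The other 3 calls were small and did not hold under every alternative. CCND1 (-0.12) was lost without JNJ-64619178 replicate 3 or DMSO replicate 1 or 2 (adjusted p 0.0551 to 0.145). CCND3 (0.22) was lost without JNJ-64619178 replicate 2 or 3 or DMSO replicate 1 or 2 (0.0655 to 0.112). CDKN1B (-0.14) was lost without JNJ-64619178 replicate 1 or 2 or any DMSO library (0.0536 to 0.106). With all libraries kept, CCND3 was also lost under DESeq2 (adjusted p = 0.0652). In edgeR it was lost with upper-quartile scaling (adjusted p = 0.102) and no filter on low counts (0.0644). The replicate block took the calls of CCND1 (edgeR adjusted p = 0.0731) and CDKN1B (0.0536). CDK4 averaged 60.2 ± 5.15 CPM with JNJ-64619178 and 59.0 ± 0.91 CPM with DMSO and did not pass.

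Of 30 tested G1/S genes that E2F controls, 4 rose, 5 fell and 21 were not called, with a median of -0.02, against 20.0% of all genes called higher and 17.1% lower. DESeq2 called 1 higher and 4 lower, and edgeR with upper-quartile scaling called 2 higher and 6 lower. MCM7, a subunit of the replicative helicase, rose by 0.76 on the log2 scale (edgeR adjusted p = 2.35e-12), and its fellow subunit MCM4 was called higher at 0.15 (0.0371). The subunits MCM5 (-0.38) and MCM6 (-0.31) fell, MCM2 was called lower at -0.18 (edgeR adjusted p = 0.0406), and MCM3 was not called. MCM4 lost its call without JNJ-64619178 replicate 1 or 2 or DMSO replicate 2 or 3 (adjusted p 0.0684 to 0.189). MCM2 lost its call without JNJ-64619178 replicate 3 or DMSO replicate 1 or 2 (0.087 to 0.264). Under DESeq2, with all libraries, MCM4 (adjusted p = 0.0923) and MCM2 (0.0634) also did not pass. In edgeR, MCM4 was also lost with upper-quartile scaling (adjusted p = 0.201), no filter on low counts (0.115) and the replicate block (0.0504). The thymidine kinase gene TK1 was called lower at -0.42 (edgeR adjusted p = 0.0253), and lost its call without JNJ-64619178 replicate 1 (0.168) or DMSO replicate 2 (0.0953). RRM2, the regulated subunit of ribonucleotide reductase, averaged 2.30 ± 0.44 CPM with JNJ-64619178 and 3.75 ± 0.33 CPM with DMSO (log2 fold change -0.71, edgeR adjusted p = 0.00279). ORC1 (0.81), of the origin recognition complex, and the dUTPase gene DUT (0.17) were called higher. ORC1 lost its call without JNJ-64619178 replicate 2 or 3 or DMSO replicate 2 or 3 (adjusted p 0.0674 to 0.125). It also lost the call under DESeq2 with all libraries (adjusted p = 0.075). DUT lost its call without JNJ-64619178 replicate 1 or 2 or any DMSO library (0.0508 to 0.208), and in 9 of all 13 alternatives. Without DMSO replicate 2 the list held 4 calls, 1 higher and 3 lower, in place of 9.

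Of the 25 tested G2/M genes that DREAM represses in resting cells, 1 rose, 3 fell and 21 were not called (median -0.16). MKI67, the proliferation marker, had 7.12, 4.79 and 6.48 CPM with JNJ-64619178, against 9.65, 11.6 and 11.5 CPM with DMSO. All inhibitor libraries were lower, and MKI67 fell by 0.84 on the log2 scale (edgeR adjusted p = 1.07e-05). TOP2A, the mitotic topoisomerase, had 5.08, 3.18 and 5.81 CPM with JNJ-64619178, against 7.44, 6.92 and 8.45 CPM with DMSO (log2 fold change -0.71, edgeR adjusted p = 0.000941). PLK1, a mitotic kinase, was called at -0.33. It lost its call without any 1 of the JNJ-64619178 libraries or DMSO replicate 1 (adjusted p 0.0507 to 0.295), and in 7 of all 13 alternatives. CKS2, a kinase subunit, rose by 0.41 and lost its call when DMSO replicate 3 was left out (adjusted p = 0.061). RBL1, E2F7, MKI67 and TOP2A were all called lower in this comparison, as were 17.1% of all tested genes. Of the G2/M list, 21 of 25 genes were not called, where 37.1% of all tested genes were called. The list's median of -0.16 stands beside 0.001 over all genes tested. The part of the cell cycle state in the change of RBL1 and E2F7 was not tested. In bulk RNA, fewer cycling cells and less RNA per cell cannot be told apart.

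**Figure D4:**
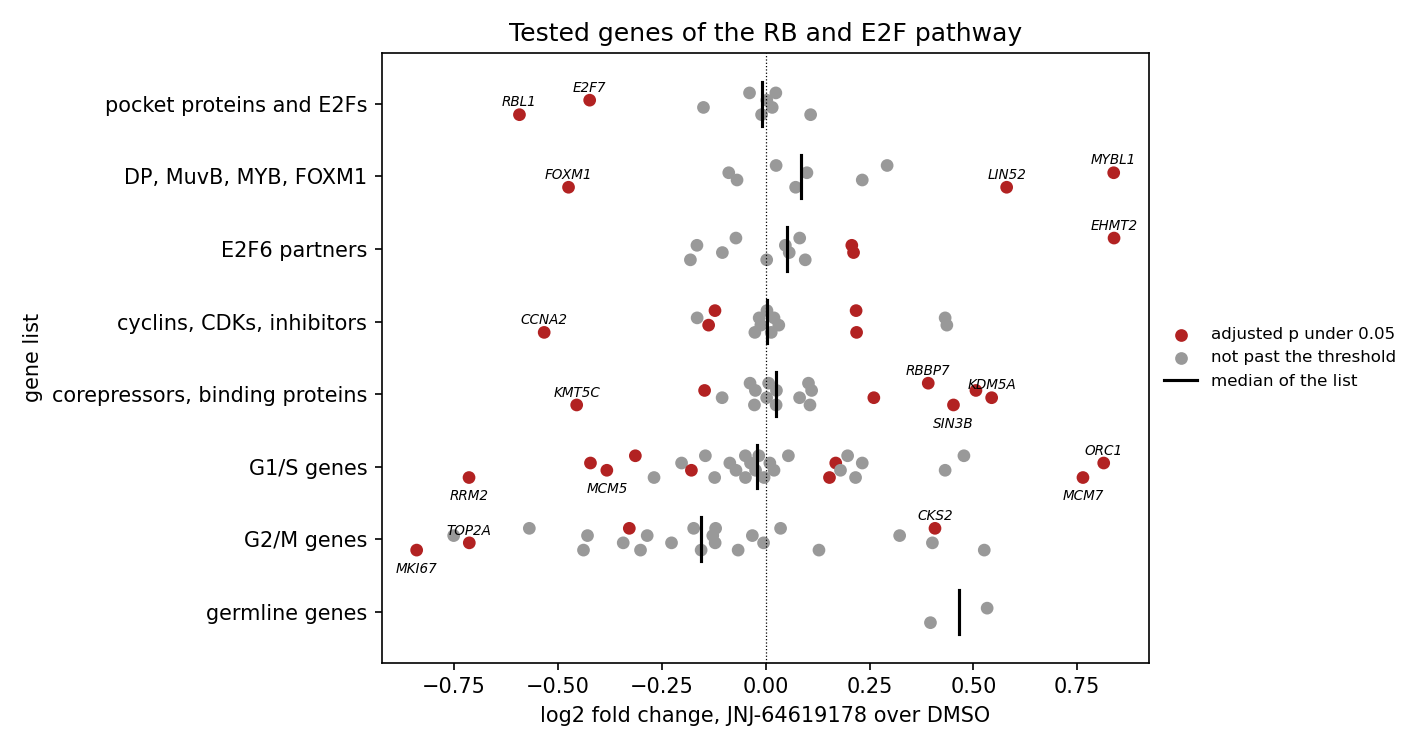
Log2 fold change of JNJ-64619178 over DMSO for each tested gene (points, red where the adjusted p is under 0.05) in 8 gene groups, with the group's median as a line. The pocket protein and E2F median lies at -0.01, with RBL1 and E2F7 to its left, and the medians of the other groups run from -0.16 for G2/M genes to 0.46 for the 2 tested germline genes.

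The genes whose log2 CPM followed that of RBL1 most closely over the 6 libraries, among those averaging at least 1 on that scale, were ZNF316 (Pearson r = 0.998), SAA2 (0.998) and PTPDC1 (0.997). These values describe 6 points in 2 separate groups, and any gene that differs between the groups with little spread scores high. Their log2 fold changes were -0.37, -0.71 and -0.16.

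The cell line carried the markers of bile duct epithelium. KRT7 and KRT19, keratins of bile ducts, averaged 2842 and 476 CPM with JNJ-64619178 and 3646 and 528 CPM with DMSO. KRT8, KRT18, EPCAM, SOX9 and CDH1 were also detected, the lowest being SOX9 with 67.8 CPM with JNJ-64619178 and 59.7 CPM with DMSO. Of these 7 markers, 4 fell and 1 rose by the test, all by less than 0.4 on the log2 scale. Markers of leukocytes, endothelium, hepatocytes and fibroblasts had at most 0.57 CPM in any library, and TTR was at 0 in all.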

How the data were processed

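Polyadenylated RNA of 6 HuCCT-1 libraries was analysed, 3 with JNJ-64619178 and 3 with DMSO. The values are unnormalized gene counts, which the authors deposited as a single table. The submitters' processing notes list STAR 2.7.9a, FastQC 0.11.8, limma, edgeR and featureCounts 1.6.0 without saying what each did. They also list GRCm39, a mouse build, although the 60649 rows have human Ensembl identifiers. The strand option of the counting, its annotation release and its treatment of multiply mapping reads are not stated in the labels. There were 44 repeated identifiers, each with a total count of 0, and these rows were dropped. Symbols were matched for 60463 of the 60605 remaining identifiers through a reference table of gene names. A further 130 took theirs from GENCODE release 29, the source of positions and exonic lengths.

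Genes were kept with filterByExpr (minimum count 10, minimum total count 15), scaled by TMM and tested with edgeR 4.0.16 (glmQLFit, glmQLFTest, group alone), with Benjamini-Hochberg adjustment over all genes and a threshold of 0.05. The standard error was the log2 fold change divided by the square root of F, and 95% intervals used the fit's degrees of freedom. Alternatives were DESeq2 1.42.0, limma-voom (limma 3.58.1), upper-quartile or RLE scaling, keeping all genes or only those over 1 CPM in 3 libraries, the replicate number as a block, and leaving out each library. Fits ran in R 4.3.3 and summaries in Python 3.11.15. The fitting script was tested on simulated data. Counts are not corrected for molecular duplicates.

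All 10 members were named. Of each pathway list, the 3 called genes with the smallest p in each direction were named, with others where a count was 5 or fewer, and the 3 genes most correlated with the member of the largest called fall. The members and lists were chosen with earlier results of these data known.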

Additional observations from a re-analysis of the deposited data

How the results depend on the processing

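RBL1 and E2F7 stayed called lower under all 13 alternatives, with log2 fold changes of -0.65 to -0.56 and -0.48 to -0.38. Leaving out single libraries gave 2 to 3 member calls, and all other alternatives gave 2. Over all genes the calls ranged from 5304 to 6899. The lists of DP and MuvB genes (3 to 4 calls), E2F6 partners (2 to 4), corepressors (6 to 8), G2/M genes (3 to 5) and germline genes (0) stayed within 1.5 times their count. The same replicate numbers stand in both groups, but deviations of same-numbered libraries did not correlate (r = -0.02, -0.01 and 0.002). Such a check cannot show whether same-numbered libraries were handled together. With the replicate number as a block 6132 genes and 2 members were called (RBL1 -0.59, E2F7 -0.42), and the cyclin and kinase list had 3 calls in place of 5. That list had 2 to 4 calls with single libraries left out. The G1/S list had 5 calls in place of 9 with DESeq2 and 4 to 7 with single libraries left out. The causes were not tested. Of the tested members not past the threshold, RBL2 stayed positive in all 13 alternatives, while the direction of the other 6 turned in at least 1. With single libraries left out, the log2 fold change ran from -0.074 to 0.047 for RB1, from 0.08 to 0.16 for RBL2, from -0.10 to 0.016 for E2F3, from -0.034 to 0.069 for E2F4, from -0.094 to 0.056 for E2F5, from -0.042 to 0.077 for E2F6 and from -0.66 to 0.31 for E2F8. Upper-quartile scaling shifted the median of all genes by -0.06 and turned E2F4 (-0.034), E2F5 (-0.056) and E2F6 (-0.043) negative. E2F5 was also negative with DESeq2 (-0.0042), RLE scaling (-0.0044) and no filter on low counts (-0.0084). Depth limits E2F2 and E2F8, whose libraries held 1 to 33 reads.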

Other observations

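E2F3-IT1, a transcript annotated within an E2F3 intron on the same strand, was counted with 11, 4 and 10 reads in the JNJ-64619178 libraries, against 1, 0 and 0 reads in the DMSO libraries. It was chosen after its values were seen and fell below the count filter. With no filter on low counts its edgeR adjusted p was 0.000418. E2F3 itself had 609 to 697 reads per library with JNJ-64619178 and 696 to 888 with DMSO and did not pass the test, so the intronic reads were few beside the gene's own.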
